A study of Homo sapiens with 6 samples.

Results

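The unfolded protein response and the ATF4 amino acid response were followed here through 10 genes of 58676 in the deposited table. ATF4, DDIT3, TRIB3, ASNS, CHAC1 and SESN2 stand for the PERK-ATF4 arm. HSPA5, HSP90B1 and DNAJB9 stand for the chaperones of the endoplasmic reticulum (ER), and XBP1 is the transcription factor of the IRE1 arm. Members were found by their Ensembl gene ID, with symbols from GENCODE 29, and were chosen by name for their place in the pathway. Their levels played no part in that rule, but earlier results of these data were known when the list was drawn up.

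RNA from a human line that the labels call HCC, grown in DMEM with FBS, was sequenced as 3 control libraries (titled 238) and 3 knockdown libraries (titled sponge), as the genotype labels call them. The series title speaks of cells treated with miR-19a, and a sponge is a transcript that soaks up a microRNA. The labels name neither the line nor the construct, and they do not say whether libraries came from separate cultures or clones, so p-values measure only the spread from library to library, and that spread may be technical. Knockdown replicate 2 was left out, because its values do not follow the order of the gene IDs. Its rank correlation across genes with each other library was at most 0.0191, against at least 0.822 among the other 5, and its column lists 7 of the 10 members at 0, HSPA5 and ATF4 among them.

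Levels are in RPKM, read numbers scaled to exon length and library depth. That puts genes and libraries on a common scale but does not remove a library's own trends with transcript length and GC. Control replicates 1, 2 and 3 held 9181567, 1948940 and 19605312 reads assigned to genes, and knockdown replicates 1 and 3 held 9296308 and 15198231. Control replicate 2, the shallowest, also had 3.71% of its reads on processed pseudogenes, against 0.658% to 1.33% in the other 4. All 9 hepatocyte markers looked at were tested, and their summed level was 1519.8 to 1899.9 RPKM across the controls and 1689 to 1762 RPKM in the knockdown libraries, with ALB the largest part. Single markers separated the groups both ways, as did many other genes. Of all genes tested, 14.3% had both knockdown libraries above all controls and 13.6% below all. TF (55.3 to 64.4 RPKM in controls and 81.4 to 82.4 in knockdown) and SERPINA1 (56.2 to 73.5 and 93.7 to 97.1) were above all controls. APOB (85.6 to 134 and 45.7 to 83.5) was below all. Of 7 markers of T and blood cells 3 passed the filter (summed level 44.2 to 51.4 RPKM in controls and 46.2 to 52.4 in knockdown). Most of that sum was CD14 (28.6 to 38.4 RPKM in controls and 30.6 to 36.8 in knockdown) and LYZ (8.59 to 11.6 and 9.36 to 9.39). PTPRC was at most 0.0713 RPKM and HBB was at 0 throughout. CD3D, at 3.07 to 4.46 RPKM in controls and 6.09 to 6.14 in knockdown, was above all controls. Of 7 fibroblast markers 4 passed (63.9 to 83.7 and 68.4 to 72.5 RPKM, mostly LUM), with COL1A1 (0.732 to 1.99 and 2.16 to 2.33 RPKM) and COL1A2 (7.54 to 11.7 and 12.02 to 14.7 RPKM) above all controls and PDGFRA (0.580 to 1.11 and 0.352 to 0.431 RPKM) below all. Of 4 endothelial markers 1 passed (0.523 to 0.760 and 0.388 to 0.406 RPKM, KDR at 0 throughout). The part of other cell types in the results was not tested, and in bulk RNA fewer cells of a kind and less RNA per cell cannot be told apart.

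As background, cells sense unfolded protein in the ER through PERK, IRE1 and ATF6. PERK, like the amino acid sensor GCN2, phosphorylates the translation factor eIF2, which slows protein synthesis while the ATF4 messenger is translated more, and ATF4 then switches on genes of amino acid supply and of stress. IRE1 splices the XBP1 messenger and ATF6 is cut free in the Golgi, and both factors raise chaperones and the degradation machinery of the ER. Gene-level RPKM shows neither the splicing of XBP1 nor the translation of ATF4, so only the amount of each messenger is described here. In the liver this pathway serves a cell type that secretes large amounts of plasma protein.

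Short promoter stretches are shown first because the elements found differ between the PERK-ATF4 arm and the chaperones. They come from RefSeq windows on GRCh38.p14 of 300 bases, most of them before the start site, and all 10 members had such a window. The core of the C/EBP-ATF response element, TGATGNAA, was searched on both strands and was found in 2 members, ASNS and CHAC1. It lies in 3.63% of all 34796 distinct windows. The ASNS match stands 68 to 61 bases before the start site (chr7:97872449-97872496, minus strand of the genome), and the CHAC1 match, on the strand opposite to the gene, 209 to 202 bases before it (chr15:40953242-40953289, plus strand). Capitals mark the match.
ASNS: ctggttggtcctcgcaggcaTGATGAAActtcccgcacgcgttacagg
CHAC1: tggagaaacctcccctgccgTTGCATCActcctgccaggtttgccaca

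The ER stress response element, CCAAT followed by 9 bases and CCACG, was found in HSPA5, HSP90B1 and XBP1, and in 0.0776% of all windows. HSPA5 (chr9:125241371-125241429, minus strand) carries it 66 to 48 bases before the start site and XBP1 (chr22:28800583-28800641, minus strand) 52 to 34 bases before it. HSP90B1 has a match 194 to 176 bases before the start site (chr12:103930196-103930254, plus strand) and another, on the opposite strand, 89 to 71 bases before it (chr12:103930301-103930359, plus strand). Capitals again mark the match, with the spacer included.
HSPA5: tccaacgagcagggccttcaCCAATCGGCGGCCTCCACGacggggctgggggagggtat
XBP1: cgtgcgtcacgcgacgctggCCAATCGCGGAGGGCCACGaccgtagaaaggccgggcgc
HSP90B1, distal: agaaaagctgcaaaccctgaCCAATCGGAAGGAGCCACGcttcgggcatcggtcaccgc
HSP90B1, proximal: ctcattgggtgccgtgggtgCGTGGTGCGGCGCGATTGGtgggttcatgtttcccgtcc

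No member window held the letters of both elements. Element II (ATTGG, 1 base, CCACG; 0.0546% of windows) and the unfolded protein response element TGACGTGG (0.733% of windows) matched in 0 of 10 members. A match describes letters in a window, and the absence of one says only that those letters are not there.

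The series title names miR-19a, and the sequences of that family are shown because the seed, bases 2 to 8 in capitals, defines what a direct site in a messenger would look like. RefSeq gives the mature strands as follows, miR-19a from chr13:91350939-91350961 on the plus strand.
hsa-miR-19a-3p: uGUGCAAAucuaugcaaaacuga
hsa-miR-19b-3p: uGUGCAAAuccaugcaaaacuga
The site complementary to this shared seed, TTTGCAC, was found in the longest annotated 3' UTR of 0 of the 10 members. Of all 19436 coding genes with an annotated 3' UTR, 14.2% hold it. Members' 3' UTRs are of unequal length, from 83 bases in ATF4 to 1739 in HSPA5. Shorter matches to the seed and other transcripts were not searched, so the count covers this site in those 3' UTRs only.

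Expression was compared between the 3 control and the 2 knockdown libraries with limma on log2(RPKM + 0.5), with Benjamini-Hochberg adjustment over the 15408 genes that reached 0.5 RPKM in 3 or more of the 5 libraries. Of the 10 members 9 entered the fit, and ASNS was under the filter. None of the 9 passed an adjusted p of 0.05, as was so for all genes tested (0% called, and also 0 with limma's voom on recovered reads, where the unadjusted p was under 0.05 for 747 higher and 885 lower genes). By unadjusted p under 0.05, 3.8% of all genes were higher and 2.54% lower in the knockdown libraries, and 0 members were in either set. In 14.3% of all genes both knockdown libraries lay above all controls, and in 13.6% below all. DNAJB9 was the only one of the 9 tested members above, a share near that of all genes, and none was below. Of the 9 tested members 4 had a log2 difference above 0 and 5 below, beside 7701 above and 7707 below over all genes.

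ATF4 (ENSG00000128272, chr22:39519695-39522685, plus strand) encodes the basic leucine zipper factor at the head of the arm. It was among the most abundant members, at 142, 98.4 and 129 RPKM in control replicates 1, 2 and 3. Knockdown replicates 1 and 3 were at 128 and 145 RPKM. Control replicate 2 was the low library, and the knockdown libraries bracketed the other controls, so the groups overlap. The log2 difference, knockdown minus control, was 0.16 (SE 0.21, 95% interval -0.37 to 0.69, limma adjusted p 0.85). Reads on 4 annotated ATF4 pseudogenes came to 9.34 per 100 ATF4 reads in control replicate 2 and to 0.457 to 1.04 in the other 4 libraries. With those reads added, ATF4 stood at 359.5, 270.4 and 325 CPM (read numbers scaled to library depth alone) across the controls and 324 and 367 in the knockdown libraries, so control replicate 2 remained the lowest.

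DDIT3 (ENSG00000175197, chr12:57516588-57521737, minus strand) encodes CHOP, a factor induced late in the arm and linked to cell death. Its levels were low, at 6.33, 4.71 and 7.96 RPKM across the controls and 7.32 and 7.65 RPKM in the knockdown libraries. Both knockdown values lay inside the control range. The log2 difference was 0.25 (SE 0.24, interval -0.35 to 0.86, limma adjusted p 0.80), and the value in control replicate 2 rests on 12 reads. DDIT3 shares 355 of its 1307 exon bases with MARS on the opposite strand, which stood at 49.0, 48.6 and 47.2 RPKM across the controls and 39.5 and 33.5 RPKM in the knockdown libraries. Whether counting used strand is not given in the sources used here, so reads of the shared stretch cannot be told apart.

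TRIB3 (ENSG00000101255, chr20:362835-397559, plus strand) is a pseudokinase induced by ATF4 and CHOP that feeds back on ATF4. At 45.8, 34.4 and 43.2 RPKM across the controls and 36.8 and 39.0 RPKM in the knockdown libraries, it was the second most abundant gene of the arm. Both knockdown values lay between the lowest control and the other controls. The log2 difference was -0.11 (SE 0.18, interval -0.55 to 0.34, limma adjusted p 0.89).

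CHAC1 (ENSG00000128965, chr15:40952962-40956519, plus strand) encodes an enzyme that breaks down glutathione and is a sharply inducible ATF4 target. Its levels were 2.38, 1.75 and 2.92 RPKM across the controls and 1.93 and 2.97 RPKM in the knockdown libraries. These rest on 45, 7 and 118 reads and on 37 and 93 reads. The knockdown libraries differed from each other about as much as the controls did, and the log2 difference was 0.05 (SE 0.28, interval -0.65 to 0.75, limma adjusted p 0.97).

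SESN2 (ENSG00000130766, chr1:28259527-28282491, plus strand) encodes sestrin 2, a leucine sensor that restrains mTORC1. It was at 8.74, 7.13 and 11.6 RPKM across the controls and at 8.63 and 8.57 RPKM in the knockdown libraries. Both knockdown libraries sat inside the control range, nearly at the same level. The log2 difference was -0.06 (SE 0.23, interval -0.64 to 0.52, limma adjusted p 0.95).

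ASNS (ENSG00000070669, chr7:97852118-97872542, minus strand) encodes asparagine synthetase, a classic target of ATF4 when amino acids run short. It was barely detected in any library, at 0.391, 0.115 and 0.435 RPKM across the controls and 0.362 and 0.325 RPKM in the knockdown libraries. The reads behind these values were 16, 1 and 38, then 15 and 22. For control replicate 2 the exact 95% Poisson interval runs from 0.00292 to 0.642 RPKM, which covers every other library, and such intervals cover counting error only. In the fit without the filter the log2 difference was 0.08 (SE 0.28, limma adjusted p 0.94). ASNS shares 1985 of its 4455 exon bases with AC079781.5 on the same strand, itself at 0 to 0.416 RPKM, so reads there may be split or dropped by a counter that the sources used here do not name.

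HSPA5 (ENSG00000044574, chr9:125234853-125241330, minus strand) encodes BiP, the main Hsp70 of the ER, which also holds the 3 sensors inactive. It was the most abundant member, at 185, 160.2 and 226 RPKM across the controls and 162 and 164 RPKM in the knockdown libraries. The knockdown libraries lay close together, just above control replicate 2 and below the other controls. The log2 difference was -0.21 (SE 0.20, interval -0.71 to 0.30, limma adjusted p 0.80).

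HSP90B1 (ENSG00000166598, chr12:103930107-103953645, plus strand) encodes GRP94, the Hsp90 of the ER. Its levels were 90.7, 73.9 and 126 RPKM across the controls and 87.4 and 96.2 RPKM in the knockdown libraries. The groups overlap fully, with a log2 difference of -0.04 (SE 0.26, interval -0.68 to 0.60, limma adjusted p 0.97).

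DNAJB9 (ENSG00000128590, chr7:108569568-108574850, plus strand) encodes ERdj4, a J-domain partner of BiP and a target of spliced XBP1. It was at 16.8, 14.6 and 19.92 RPKM across the controls and at 21.6 and 19.95 RPKM in the knockdown libraries. Both knockdown libraries were above all controls, although knockdown replicate 3 and control replicate 3 differed only in the second decimal. The log2 difference was 0.28 (SE 0.18, interval -0.17 to 0.73, limma adjusted p 0.73), the largest in size of the 9 tested members. DNAJB9 shares 183 exon bases with THAP5 and 99 with PNPLA8.

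XBP1 (ENSG00000100219, chr22:28794555-28800597, minus strand) encodes the factor whose messenger IRE1 splices. It was at 115, 71.3 and 125 RPKM across the controls and at 85.5 and 104 RPKM in the knockdown libraries. Both knockdown values lay between control replicate 2 and the other controls, and the log2 difference was -0.10 (SE 0.29, interval -0.81 to 0.62, limma adjusted p 0.94).

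**Figure D1:**
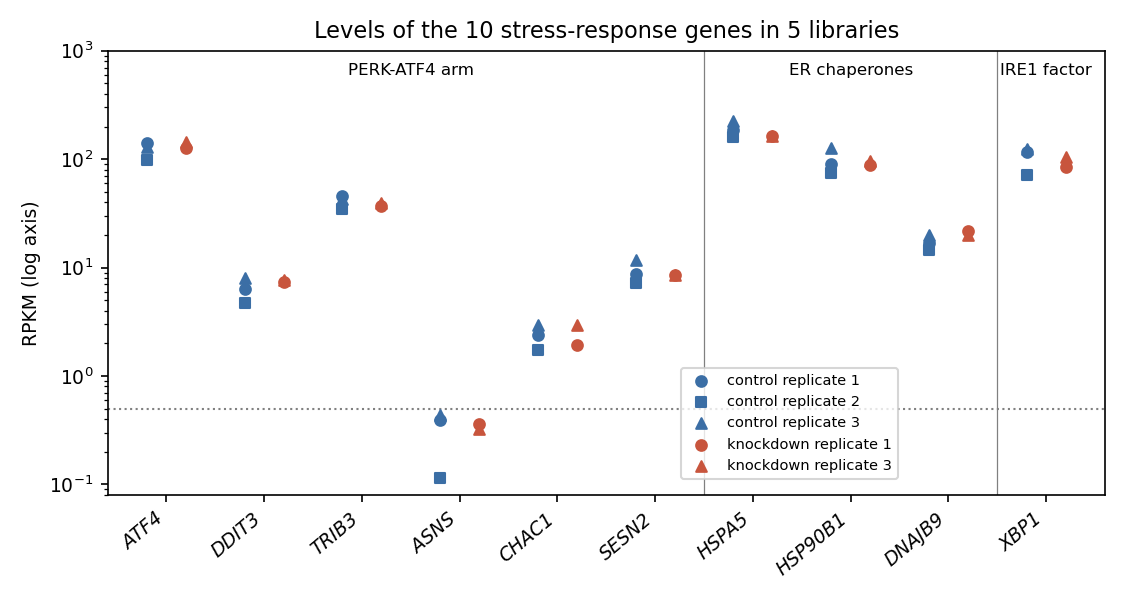
Level of each of the 10 members in RPKM (log axis) in the 3 control and 2 knockdown libraries, 1 point per library. Control replicate 2 is the lowest point for all 10 members, and the groups overlap for every member but DNAJB9.

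The controls differed among themselves in the same order for most of these 10 genes. Control replicate 2 was the lowest of the 5 libraries for 10 of 10 members, whereas it was lowest for 42.3% of all genes tested. Control replicate 3 was the highest for 6 of 10 members, against 37.0% of all genes. From control replicate 2 to control replicate 3 the level ratio was 1.26 for TRIB3, 1.31 for ATF4, 1.41 for HSPA5, 1.70 for HSP90B1 and 1.75 for XBP1. Depth and pseudogene share differ between the same libraries, and their part in this spread was not tested. As means and SD, ATF4 was at 123 ± 22.2 RPKM in the controls (n = 3) and 136 ± 12.05 RPKM in the knockdown libraries (n = 2), and HSPA5 at 190.4 ± 33.5 RPKM (n = 3) and 163 ± 1.29 RPKM (n = 2).

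**Figure D2:**
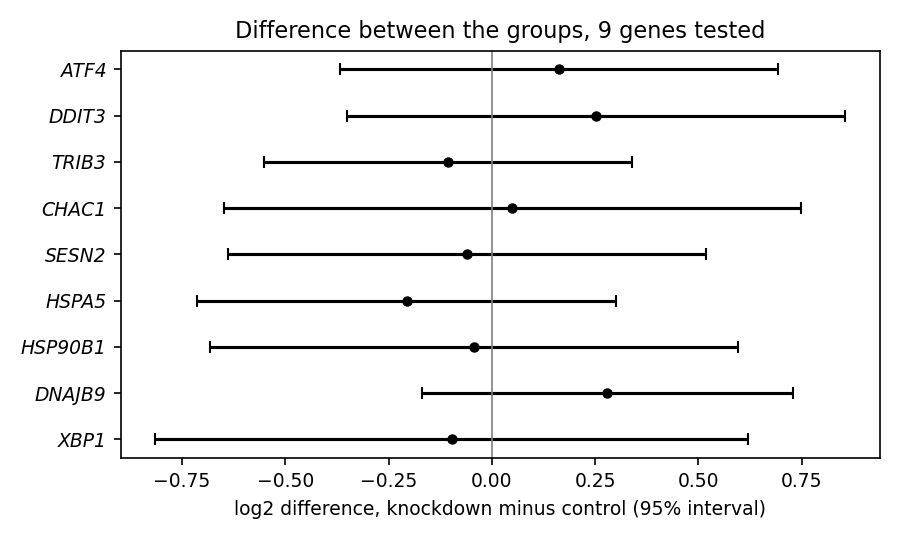
Log2 difference, knockdown minus control, of the 9 tested members on the log2(RPKM + 0.5) scale, with its 95% interval from limma. Every interval crosses 0, and the values run from -0.21 for HSPA5 to 0.28 for DNAJB9.

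The intervals set what size of change could have been missed. For ATF4 the interval reaches 0.69 on the log2 scale, for HSPA5 it runs down to -0.71, and for XBP1 to -0.81. A p that misses the threshold does not show that the groups had equal levels.

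Across the 5 libraries the members were ordered as follows in level per length. HSPA5 led with a mean of 179.6 RPKM and did not overlap with the next gene, followed by ATF4 at 128 RPKM, XBP1 at 100.1 RPKM and HSP90B1 at 94.8 RPKM. Neighbours among the last 3 overlap between libraries. TRIB3 at 39.8 RPKM and DNAJB9 at 18.6 RPKM each stood apart from their neighbours in the order. SESN2 at 8.94 RPKM and DDIT3 at 6.80 RPKM overlap, and CHAC1 at 2.39 RPKM and ASNS at 0.326 RPKM came last. Overlap here is between ranges over the 5 libraries. Within each library SESN2 stood above DDIT3, and ATF4 above XBP1. ATF4, the factor, was thus far more abundant as messenger than the targets DDIT3, CHAC1 and ASNS in control and knockdown libraries alike.

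The PERK-ATF4 arm was set against the ER chaperones as the mean of log2(RPKM + 0.5) over the 5 tested arm members and over the 3 chaperones. For the arm this mean level was 4.04, 3.65 and 4.18 across the controls and 3.93 and 4.10 in the knockdown libraries. For the chaperones it was 6.05, 5.82 and 6.39, then 6.09 and 6.10. Both scores were lowest in control replicate 2 and highest in control replicate 3, and both knockdown libraries lay between. Arm minus chaperones was -2.01, -2.18 and -2.20 across the controls and -2.16 and -2.01 in the knockdown libraries. The group means of this contrast were -2.13 ± 0.10 (SD, n = 3) and -2.08 ± 0.11 (SD, n = 2), a difference of 0.05 that is smaller than either SD. As the median of single-gene log2 differences, the arm stood at 0.05 (3 members above 0 and 2 below) and the chaperones at -0.04 (1 above and 2 below), beside -0.00 over all genes tested. With trends in transcript length and GC removed, the arm median became -0.25 and the contrast -0.17, so the direction of the contrast is not stable to that choice.

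**Figure D3:**
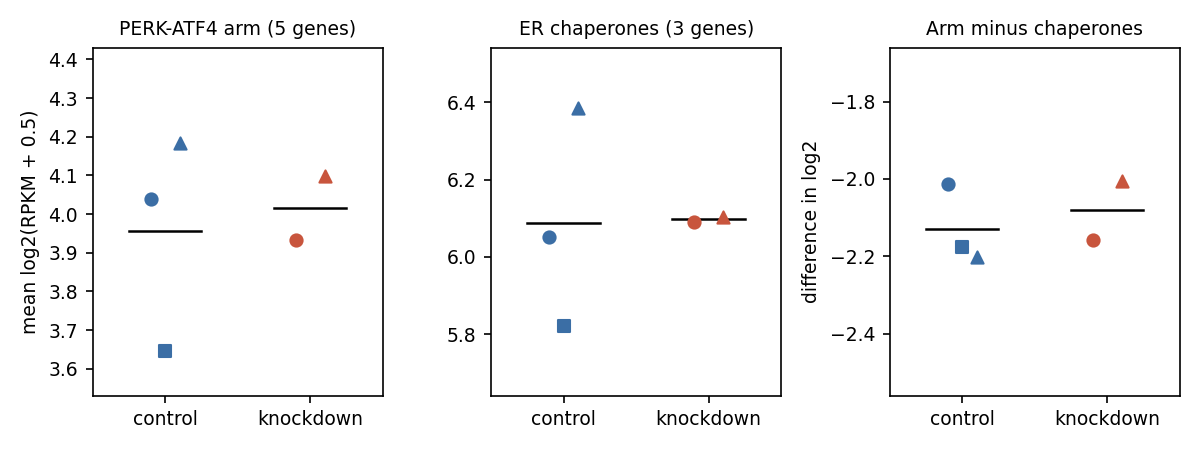
Mean log2(RPKM + 0.5) of the 5 tested PERK-ATF4 arm members and of the 3 ER chaperones in each library, and the arm minus the chaperones. The contrast lies between -2.20 and -2.01 in all 5 libraries, from -2.20 to -2.01 among the controls and from -2.16 to -2.01 among the knockdown libraries, so the groups overlap.

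Ratios between members within a library were also taken. Of 7 ratios looked at after the values were seen, 2 did not overlap between groups. HSPA5 over ATF4 was 1.30, 1.63 and 1.76 across the controls and 1.27 and 1.13 in the knockdown libraries. TRIB3 over ATF4 was 0.324, 0.349 and 0.335 across the controls and 0.288 and 0.270 in the knockdown libraries. Both ratios were below all controls in both knockdown libraries, but so was the ratio to ATF4 of 14.7% of the 15407 other genes tested. DDIT3, CHAC1, SESN2 and HSP90B1 over ATF4 overlapped, and so did DNAJB9 over XBP1, at 0.146, 0.205 and 0.160 across the controls and 0.252 and 0.192 in the knockdown libraries.

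The profile of ATF4 over the 5 libraries was most like that of PDAP1, KLHDC2, MTX1, ZCCHC9 and DAZAP1. The search covered 6892 genes with a mean of at least 5 RPKM, and the members and list genes were left out of it. Likeness was measured as the root mean square distance between centred log2 profiles, which was 0.0233 for PDAP1 and 0.0320 for DAZAP1. HSPA5 was nearest to HAUS2, PAICS, ACOX3, NET1 and KNSTRN, with distances of 0.0201 for HAUS2 to 0.0247 for KNSTRN. Whether a member or list gene lies nearer was therefore not looked at, and 5 libraries are few for such a measure.

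Upstream of the members, the 20 genes of stress sensing and eIF2 control were all tested, and 3 had a log2 difference above 0 and 17 below, with a median of -0.17. With length and GC trends removed the split was 8 above and 12 below, at a median of -0.06. Without control replicate 3 it was 6 above and 14 below, at -0.08. EIF2AK3, which encodes PERK, was at 7.06, 9.16 and 10.4 RPKM across the controls and 8.02 and 7.16 RPKM in the knockdown libraries, a log2 difference of -0.20 (SE 0.21). The kinase gene EIF2AK4 (GCN2) had -0.22 (SE 0.19), ATF6 had -0.05 (SE 0.20) and ERN1 (IRE1) had 0.27 (SE 0.26). These sensors overlapped between groups or differed by about 1 SE. PPP1R15A, which encodes GADD34, the stress-induced eIF2 phosphatase subunit, stood at 22.7, 20.6 and 26.1 RPKM across the controls and at 28.5 and 30.6 RPKM in the knockdown libraries. Both its knockdown values lay above all controls, with a log2 difference of 0.35 (SE 0.16, limma adjusted p 0.71), whereas its constitutive counterpart PPP1R15B had -0.07 (SE 0.24). Over this list 2 genes had both knockdown libraries above all controls (PPP1R15A and ATF6B) and 6 below all (EIF2AK4, EIF2S1, EIF2B2, EIF2B3, EIF2B5 and DNAJC3), beside 14.3% and 13.6% of all genes. EIF2B3, a subunit of the eIF2 exchange factor named after its values were seen, was the only one at an unadjusted p under 0.05, at 8.21, 9.33 and 8.46 RPKM against 5.23 and 6.21 RPKM (-0.56, SE 0.16). In this list 0 genes passed the adjusted p.

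Of the 25 listed partners of ATF4 and stress-induced targets 23 were tested, 17 with a log2 difference above 0 and 6 below, at a median of 0.20. In 9 of the 23 both knockdown libraries lay above all controls, and in 1 below all, beside 14.3% and 13.6% of all genes. DDIT4 (REDD1), an inhibitor of mTORC1 also induced by hypoxia and glucocorticoids, was at 15.9, 14.0 and 15.2 RPKM across the controls and at 26.9 and 28.4 RPKM in the knockdown libraries. The gap between the groups was far wider than the spread within either, with a log2 difference of 0.86 (SE 0.14, limma adjusted p 0.71). BBC3, which encodes the BH3-only protein PUMA and is also a p53 target, was named after its values were seen. It stood at 3.80, 3.55 and 3.13 RPKM across the controls and 7.64 and 7.03 RPKM in the knockdown libraries (log2 difference 0.98, SE 0.17). CEBPD, named in the same way, had 0.90 (SE 0.26), and the stress gene NUPR1 had 0.55 (SE 0.18). STC2, a secreted glycoprotein gene of the ATF4 programme, had 0.49 (SE 0.16).

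Those 5 were the only genes of this list at an unadjusted p under 0.05, and none passed the adjusted p. ATF3, a factor of the same family, was at 5.20, 3.94 and 6.96 RPKM across the controls and 8.25 and 8.18 RPKM in the knockdown libraries (log2 difference 0.60, SE 0.25). GDF15, a secreted stress cytokine, was at 39.3, 23.6 and 37.8 RPKM across the controls and 46.6 and 55.3 RPKM in the knockdown libraries (0.62, SE 0.27). For both genes each knockdown library exceeded all controls. ATF5 had -0.44 (SE 0.30), CEBPB 0.29 (SE 0.27), CEBPG -0.02 (SE 0.25), EIF4EBP1 0.36 (SE 0.33) and VLDLR 0.17 (SE 0.17). Among the members, DDIT3 and TRIB3 are regulated with several of these genes in textbook accounts, and both kept their knockdown values inside the control range.

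Amino acid supply, the other output of ATF4, had log2 differences below 0 in most listed genes, with exceptions. All 19 genes of amino acid and one-carbon synthesis were tested, 7 above 0 and 12 below, with a median of -0.05. PSAT1, which encodes phosphoserine aminotransferase of serine synthesis, was at 93.3, 95.9 and 103.6 RPKM across the controls and at 69.4 and 66.3 RPKM in the knockdown libraries. Its groups do not overlap (log2 difference -0.52, SE 0.14, limma adjusted p 0.71). ASS1, argininosuccinate synthase of arginine synthesis and named after its values were seen, had the largest difference of the list and the other sign, at 31.8, 26.1 and 33.1 RPKM against 43.6 and 49.9 RPKM (0.62, SE 0.17). It and CBS (0.26, SE 0.19) were the 2 genes of the list above all controls, and 5 were below all. Over all genes tested 14.3% were above all controls and 13.6% below all. CBS was named for its values. At an unadjusted p under 0.05 the list had 1 gene higher and 3 lower, beside 3.8% and 2.54% of all genes. The neighbouring enzymes PHGDH at 0.06 (SE 0.18) and SHMT2 at 0.00 (SE 0.14) overlapped between groups, and MTHFD2 had -0.24 (SE 0.19). Of 13 amino acid transporters 12 were tested, 2 above 0 and 10 below, with a median of -0.22. SLC7A5, the light chain of the LAT1 leucine transporter, was at 38.3, 40.1 and 42.6 RPKM across the controls and 30.8 and 26.5 RPKM in the knockdown libraries (-0.49, SE 0.15). Its heavy chain SLC3A2 had -0.14 (SE 0.15). SLC7A11, the cystine transporter, was at 1.15, 1.86 and 1.70 RPKM across the controls and 0.870 and 0.962 RPKM in the knockdown libraries (-0.53, SE 0.25).

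All 20 cytosolic aminoacyl-tRNA synthetases, which charge tRNAs and many of which are ATF4 targets, were tested. Of these 3 had a log2 difference above 0 and 17 below, at a median of -0.18. In 11 of the 20 both knockdown libraries lay below all controls, and in 0 above all, beside 13.6% and 14.3% of all genes. Without control replicate 2 this count was 15 of 20 below, while 25.4% of all genes were below in that comparison. Without control replicate 1 it was 11 of 20, beside 19.9% of all genes. Without control replicate 3 it was also 11 of 20, beside 18.5%. AARS, the alanine enzyme, was at 103, 104 and 106 RPKM across the controls and 99.5 and 90.0 RPKM in the knockdown libraries (-0.14, SE 0.14), and WARS had -0.21 (SE 0.19). Here IARS at -0.54 (SE 0.19), MARS at -0.40 (SE 0.15) and NARS at -0.39 (SE 0.15) were the 3 genes at an unadjusted p under 0.05, and they were named after their values were seen. Across these lists 0 genes passed the adjusted p, so the counts describe a direction and not a call.

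The ATF element core of the ASNS and CHAC1 windows was also counted in the lists, by gene, with a match in any of a gene's windows. By that count 1217 of all 27305 genes with a window held it. It was found in 7 of 16 aminoacyl-tRNA synthetases with a window (AARS, CARS, GARS, IARS, MARS, NARS and TARS) and in 5 of 11 transporters (SLC3A2, SLC1A5, SLC1A4, SLC7A1 and SLC38A1). It was found in 4 of 18 ATF4 partners and stress-induced targets (ATF3, CEBPG, JDP2 and FGF21), and in 0 of 24 other ER chaperones. The stress sensor list had it in 1 of 19 genes and the synthesis list in 2 of 13. The degradation list had it in 1 of 17 and the translocation list in 2 of 24. Over all genes tested, 265 held the core, and tested list genes with the core are among these 265. Their median log2 difference was -0.05, with 113 above 0 and 152 below, and in 65 of them both knockdown libraries lay below all controls against 25 above all. The 9979 tested genes with a window but no core had a median of 0.00, with 1535 below all controls and 1449 above all. This comparison was made after the values were seen, and no test was run on it.

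Beyond the 3 chaperone members, 26 other ER chaperones and folding enzymes were tested, 15 above 0 and 11 below, with a median of 0.05. CALR, the calcium-binding lectin chaperone, was the most abundant of those named, at 539.7, 544 and 524 RPKM across the controls and 545 and 569.6 RPKM in the knockdown libraries. It varied little in any library (log2 difference 0.06, SE 0.18), unlike HSPA5 and HSP90B1. CANX had -0.14 (SE 0.21), PDIA4 0.20 (SE 0.27), SDF2L1 0.03 (SE 0.20) and MANF 0.16 (SE 0.25). HYOU1, the ER Hsp110 and exchange factor of BiP, was at 29.9, 27.8 and 34.8 RPKM across the controls and 25.8 and 21.7 RPKM in the knockdown libraries (-0.37, SE 0.17). ERO1A, the oxidase that drives disulfide formation and is also induced by hypoxia, was at 8.15, 7.21 and 12.2 RPKM across the controls and 15.2 and 14.5 RPKM in the knockdown libraries (0.70, SE 0.25). It was the only gene of this list at an unadjusted p under 0.05 and was named for that. Of the 26 genes 4 had both knockdown libraries above all controls and 4 below all, beside 14.3% and 13.6% of all genes.

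The ER stress response element was found in 5 of the 24 other chaperones with a window (CALR, CANX, PDIA6, CRELD2 and ERO1B). With HSPA5, HSP90B1 and XBP1 these were 8 of the 16 tested genes that held it. The 16 had a median log2 difference of -0.04, with 6 above 0 and 10 below. In both knockdown libraries 1 lay above and 1 below all controls, beside 14.3% and 13.6% of all genes.

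ER-associated degradation, an output of XBP1 and ATF6, had 21 of 22 genes tested, 12 above 0 and 9 below, with a median of 0.01. HERPUD1 had 0.17 (SE 0.28), SYVN1 0.07 (SE 0.15) and EDEM1 -0.09 (SE 0.25). SEL1L, the scaffold of the SYVN1 ligase, was at 9.16, 11.4 and 13.5 RPKM across the controls and 8.74 and 6.59 RPKM in the knockdown libraries (-0.54, SE 0.23), below all controls in both. Of the 21 genes 3 lay above all controls and 3 below all, beside 14.3% and 13.6% of all genes. The 28 genes of ER translocation and the early secretory pathway split into 16 above 0 and 12 below, at a median of 0.03. SEC61G, named after its values were seen, was at 100.6, 49.0 and 50.2 RPKM across the controls and 113 and 138 RPKM in the knockdown libraries, so control replicate 1 lay closer to the knockdown libraries than to the other controls. SEC24D, named in the same way, had a log2 difference of -0.64 (SE 0.21). In both lists 0 genes passed the adjusted p.

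**Figure D4:**
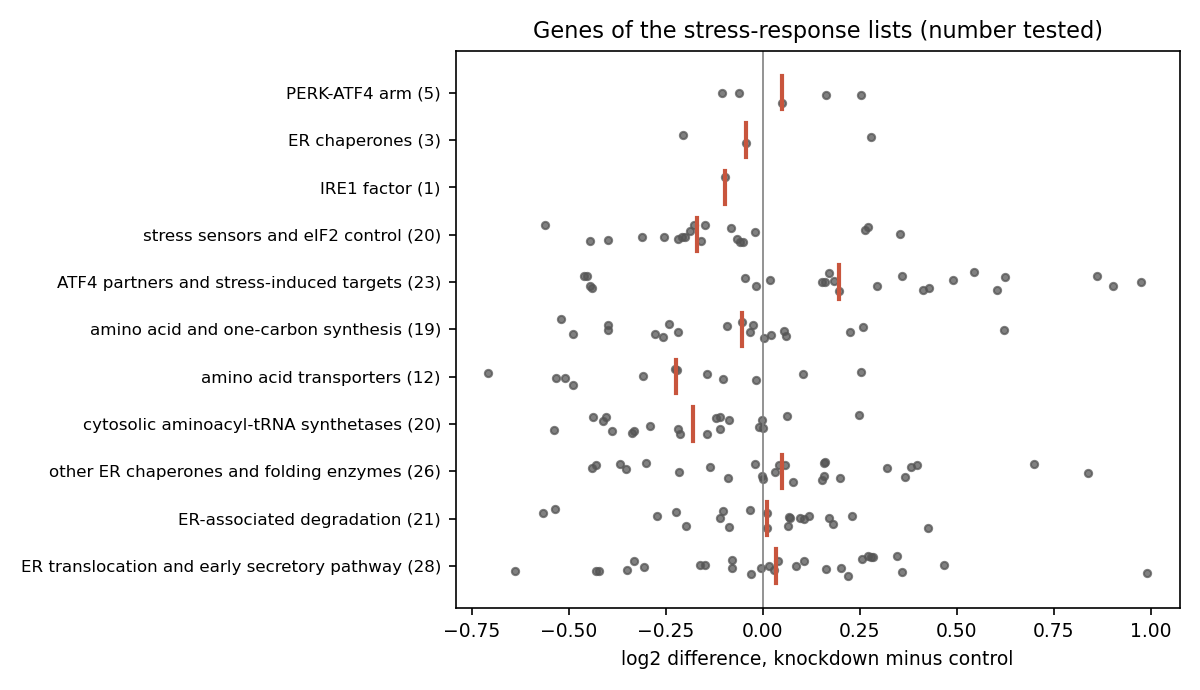
Log2 differences, knockdown minus control, of the tested genes of each list, 1 point per gene, with the list's median. The medians run from -0.22 for the amino acid transporters to 0.20 for the ATF4 partners and stress-induced targets, and no gene shown passed an adjusted p of 0.05.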

How the data were processed

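RNA-seq levels of 6 libraries of a human HCC line were deposited as 1 table. The values the authors deposited are RPKM, going by the name of the table, and the submitters' processing notes list HISAT2 and GRCh38. Read counter, annotation, strand setting and filters: not given in the sources used here. Multiplied by GENCODE 29 exon length, 100% of values in 5 libraries gave whole reads (tolerance 0.002), against 0.420% in knockdown replicate 2, which was left out. Shallow libraries are less precise: control replicate 2 holds 1948940 assigned reads.

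Values were compared as log2(RPKM + 0.5) with limma 3.58.1 in R 4.3.3 (trended moderation, two-sided, Benjamini-Hochberg over all 15408 genes that reached 0.5 RPKM in 3 or more libraries), after testing on simulated data. The pseudocount understates changes of low genes. Members and lists were chosen with earlier results of these data known. Most genes named from the lists were fixed by name whatever their values. Others are marked where they appear, or are named because they lay outside the control range or held an element. Lists are described by counts and medians without a test. Alternatives covered pseudocount, filter, scaling, length and GC, voom on recovered reads, a replicate block and leaving out each library. Promoter, miRNA and motif data came from RefSeq tables.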

Additional observations from a re-analysis of the deposited data

How the results depend on the processing

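Over 17 alternatives without knockdown replicate 2, no member passed an adjusted p of 0.05, and the lowest limma adjusted p of a member was 0.48 (DNAJB9). Over all genes, 0 were called in the comparison as reported and in the leave-one-out fits, whereas voom with sample weights on recovered reads called 3 higher and 1 lower. Replicate numbers are shared by 2 pairs, whose deviations from their group means correlated at -0.17 and 0.02. With only 2 knockdown libraries those deviations mirror each other, so these values cannot tell whether the numbers pair the libraries. The fit with the replicate block called 33 genes higher and 7 lower on 1 residual degree of freedom, and gave medians of -0.11 for the PERK-ATF4 arm and -0.22 for the chaperones. With length and GC trends removed the arm median was -0.25 and the arm minus chaperones -0.17. With all 6 columns as deposited, the arm stood at -1.08, the chaperones at -2.55 and the contrast at 1.53, from a column out of gene order. Leaving out 1 library moved the arm median from -0.11 (without control replicate 2) to 0.25 (without knockdown replicate 1), the chaperone median from -0.22 (without control replicate 2) to 0.16 (without control replicate 3), and the contrast from -0.03 to 0.13. DDIT3, TRIB3, HSPA5 and DNAJB9 kept their sign in all 17, and ATF4 and SESN2 changed it in 1, XBP1 in 2, HSP90B1 in 4 and CHAC1 in 5. Not all of these are separate checks of sign. Another filter or untrended moderation leaves a gene's log2 difference as it was. For these members the replicate block gives the same log2 difference as the fit without control replicate 2. Genes at an unadjusted p under 0.05 ranged from 122 to 1306 higher and from 64 to 932 lower, both fewest without knockdown replicate 3, and with length and GC trends removed they were 649 higher and 732 lower. List medians kept their sign for stress sensors (-0.21 to -0.06), ATF4 partners (0.16 to 0.26), synthesis (-0.19 to -0.02), transporters (-0.32 to -0.11) and synthetases (-0.24 to -0.13), and not for other chaperones (-0.04 to 0.15), degradation (-0.09 to 0.08) or translocation (-0.09 to 0.14). Depth limits ASNS, CHAC1 and DDIT3 most, since they rest on 1, 7 and 12 reads in control replicate 2.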

Other observations

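Of 9 annotated pseudogenes of the members, ATF4P3, ATF4P4 and ASNSP4 had their highest level in control replicate 2, and the other 6 did not. ATF4P3 was at 2.27, 7.77 and 0.966 RPKM across the controls and at 1.73 and 1.495 RPKM in the knockdown libraries. ATF4P4 was at 0.612, 6.97 and 0.0955 RPKM across the controls and at 0.403 and 0.431 RPKM in the knockdown libraries. In control replicate 2 these values rest on 16 and 29 reads. ASNSP4 stood at 2.30 RPKM in that library from 2 reads, ASNSP1 was at 0.0759 to 0.307 RPKM in all 5, and XBP1P1 was at 0.660 RPKM or less. The share of reads on all processed pseudogenes, 1.29%, 3.71% and 0.658% across the controls and 1.27% and 1.33% in the knockdown libraries, was highest in the library that was lowest for all 10 members.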
